A study of Mus musculus with 8 samples.

Results

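The goblet cell secretory genes described here are 10 genes of the mouse colon: Muc2, Fcgbp, Zg16, Tff3, Retnlb, Agr2, Ern2, Creb3l1, Spdef and Atoh1. They were taken by symbol as the listed secreted products and secretory machinery of goblet cells, with earlier results of these data known. All 10 were found among the 17353 genes of the deposited table, and all 10 passed the filter on low counts that left 13381 genes for testing. Goblet cells are the mucus-producing cells of the intestinal epithelium. They arise from progenitors that express the transcription factor Atoh1, mature under the transcription factor Spdef, and fold and assemble very large mucin proteins in the endoplasmic reticulum before packing them into granules. In the colon their main mucin, Muc2, forms the attached gel that keeps bacteria away from the epithelium, and smaller secreted proteins bind to this gel or to bacteria.

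RNA was sequenced from the colonic mucosa of 8 wild-type male C57BL/6J mice on day 7, with 2 animals in each of 4 groups. Control mice received a saline enema. The other 3 groups, as the series design is read here, drank 3% dextran sulfate sodium (DSS), a polysaccharide that damages the colonic epithelium. Of these, the DSS model group received saline by enema, the Kuiyangling group received the preparation Kuiyangling at 10 g/kg, and the mesalazine group received mesalazine, an aminosalicylate, at 50 mg/kg, each in 0.2 ml. No group received Kuiyangling or mesalazine without DSS, and no animal ages are stated in the labels. The p-values below rest on the spread between the 2 animals within a group, estimated in the main fit jointly over all 4 groups.

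The upstream sequences of the 10 genes were looked up to show what lies before the genes whose counts are compared. RefSeq windows of 250 bases before the gene start matched 5 of the 10 genes by symbol (Agr2, Atoh1, Fcgbp, Muc2 and Spdef, build GRCm38.p6). These windows were searched on both strands for the E-boxes CAGCTG and CAGATG, of the class bound by basic helix-loop-helix factors such as Atoh1, and for ACGTG, a core shared by unfolded protein response elements and sites of the CREB family. Muc2 and Fcgbp, which encode the gel-forming mucin and a large protein bound to it, each hold 1 CAGCTG, shown in capitals. The Muc2 window lies at chr7:141690090-141690339 and the Fcgbp window at chr7:28070986-28071235, both on the plus strand and clear of annotated exons.
Muc2: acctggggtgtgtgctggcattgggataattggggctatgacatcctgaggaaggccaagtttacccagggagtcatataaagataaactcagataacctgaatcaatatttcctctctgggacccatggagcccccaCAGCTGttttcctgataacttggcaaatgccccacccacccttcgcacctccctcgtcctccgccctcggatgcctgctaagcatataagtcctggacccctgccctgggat
Fcgbp: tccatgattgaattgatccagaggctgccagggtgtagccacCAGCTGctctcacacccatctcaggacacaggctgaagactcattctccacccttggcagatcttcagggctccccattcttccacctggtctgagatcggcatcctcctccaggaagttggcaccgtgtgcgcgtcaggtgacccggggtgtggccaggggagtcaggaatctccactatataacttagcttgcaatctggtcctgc
The CAGCTG starts 112 bases before the Muc2 start and 208 bases before the Fcgbp start. CAGCTG occurs in 13.0% of the 32851 upstream windows of the same length, so such a match is common. The window of Spdef holds an ACGTG 199 bases before the start, a core found in 16.6% of the windows. Unlike the windows of Muc2 and Fcgbp, that of Spdef overlaps 2 annotated exons, both of Spdef. CAGATG, found in 14.4% of the windows, occurs in none of the 5. These matches describe letters only, since no binding was measured.

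Each library held 15560946 to 17843715 counts assigned to genes. The 10 genes together took between 0.907% of the counts (mesalazine replicate 2) and 2.08% (control replicate 1), and Muc2 alone between 0.412% and 1.45% in the same libraries. Epithelial RNA was abundant in every library: the 15 pan-epithelial genes summed to between 21869.9 and 33145 CPM (counts scaled to a common library total, adjusted by the trimmed mean of M-values, TMM). The colonocyte enzyme Car1 reached 3280.3 to 12515 CPM, while the Paneth cell lysozyme Lyz1, which a healthy colon lacks, had 3 to 63 counts per library. The 22 immune marker genes summed to 188 and 1308 CPM in the controls and to 194 to 408 CPM in the 6 libraries of DSS-exposed mice, with 3 markers at 0 in control replicate 1 and 1 in control replicate 2. These sums do not stand for each marker. Cd74 alone held 1104 CPM in control replicate 2, against 53.8 in the other control and 70.4 to 147 in the DSS-exposed libraries. Between DSS model and control the log2 changes of S100a8 and S100a9 were 8.64 and 11.07, while 13 of the 22 estimates were below 0. Control replicate 2 and mesalazine replicate 1 stood apart, with mean rank correlations to the other libraries of 0.945 and 0.940 against 0.963 to 0.974 for the rest. Libraries also differed in how counts depended on gene length. Over all tested genes, Spearman's rho between length and deviation from the gene's mean ran from -0.53 in mesalazine replicate 1 to 0.44 in control replicate 1. It was 0.44 and 0.27 in the controls, -0.10 and -0.43 in the DSS model, -0.53 and 0.28 with mesalazine and -0.02 and 0.39 with Kuiyangling, so the controls lay high but overlapped with 2 treated libraries. Estimates or medians of the 10 genes with offsets for this trend are given with the comparisons below, but none for the pathway lists.

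Muc2 encodes the gel-forming mucin of the colon and had the most counts of the 10 genes in every library. In the control mice it stood at 12855 and 10998 CPM. The DSS model libraries held 9660.3 and 7499 CPM, the mesalazine libraries 9067 and 3950.3 CPM and the Kuiyangling libraries 6459.8 and 5050.0 CPM. Both controls lay above all 6 DSS-exposed libraries, and the DSS model pair lay above the Kuiyangling pair, while the mesalazine libraries spanned more than 2-fold. Group means were 11926 ± 1314 CPM (SD, n = 2) in control, 8579.8 ± 1528 in the DSS model, 6509 ± 3618 with mesalazine and 5755 ± 997 with Kuiyangling. Between DSS model and control the log2 change was -0.48 (SE 0.45, 95% interval -1.47 to 0.52), with an adjusted p of 0.607 by edgeR's quasi-likelihood test with Benjamini-Hochberg adjustment over all tested genes. The difference was not beyond the spread between animals, and with offsets for gene length it came to -0.07. Scaled instead to the pan-epithelial genes, Muc2 had 577 and 403 counts per 1000 in control, 291 and 266 in the DSS model, 288 and 175 with mesalazine and 258 and 231 with Kuiyangling. Bulk RNA cannot tell fewer goblet cells from less RNA per goblet cell, which holds for all of these genes.

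Fcgbp encodes a large mucus protein that is bound to Muc2 in the gel. Its control values were 1364 and 4867 CPM, the widest pair of any group for this gene. All DSS-exposed libraries fell between 933 and 1807 CPM: 1807 and 1532 in the DSS model, 1090.2 and 933 with mesalazine, 1595 and 1041 with Kuiyangling. The lower control lay inside the range of the DSS-exposed libraries, so the DSS model and control overlapped. The log2 change between them was -0.90 (SE 0.52, adjusted p = 0.417, edgeR), and without control replicate 2 it was 0.29. Control replicate 2 also held the highest level of Clca1, a secreted goblet cell protease, at 5697 CPM against 1719.8 in the other control, and of the distal colon homeobox gene Hoxb13, at 175 CPM against 19.9. The 13 genes of the gut position list together summed to 939.9 CPM there, against 836 in the other control and 695 to 811 in the DSS-exposed libraries. The part of these differences in the Fcgbp value was not tested.

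**Figure D1:**
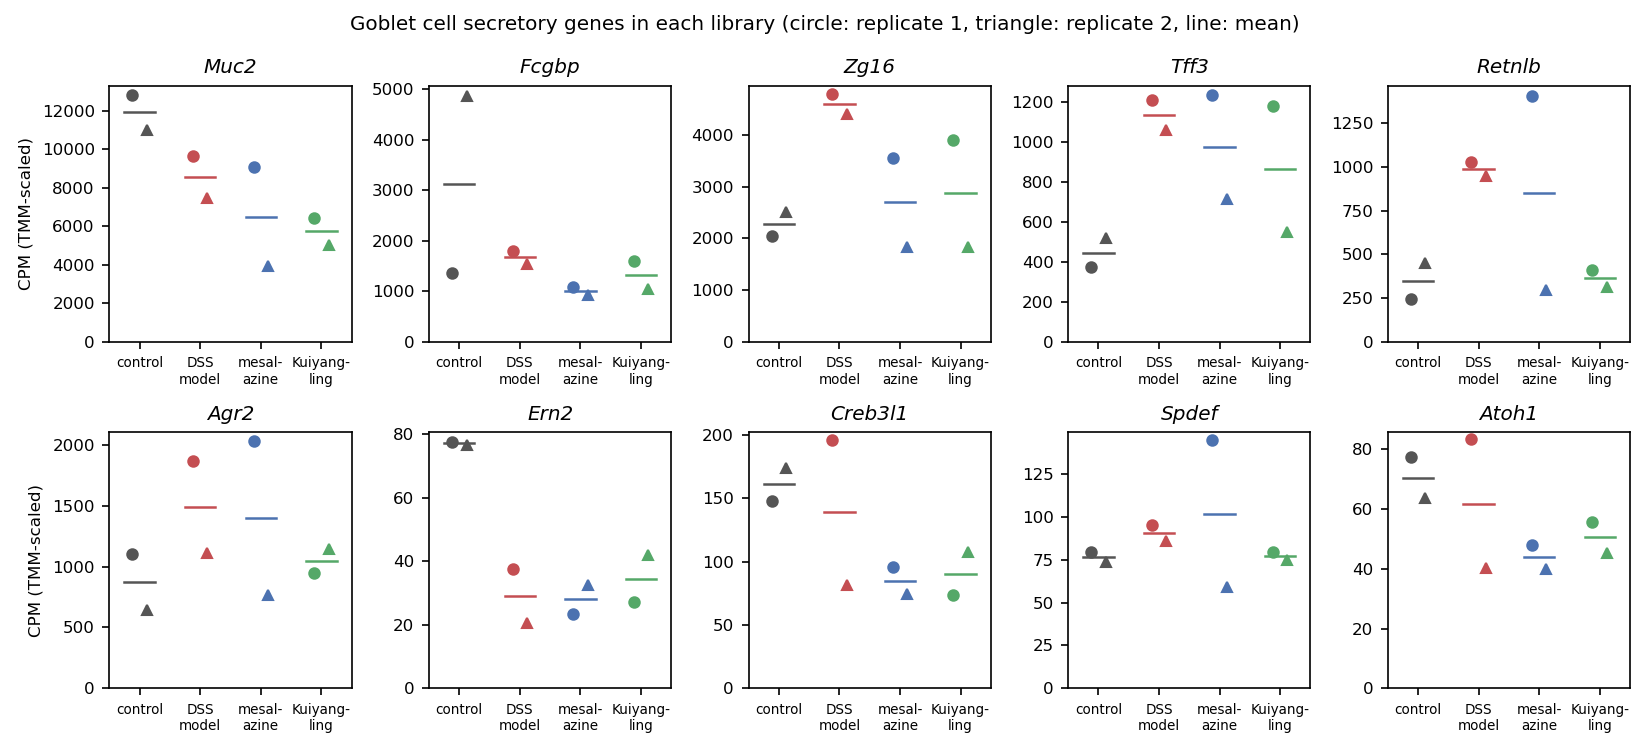
TMM-scaled CPM of the 10 genes in each of the 8 libraries, 1 panel per gene, with a circle for replicate 1, a triangle for replicate 2 and a line at the group mean. Both controls are above all DSS-exposed libraries for Muc2 and Ern2 and below all of them for Tff3, while the mesalazine pair spreads widely for Muc2, Retnlb, Agr2 and Spdef.

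The small secreted proteins showed the opposite order of control and DSS model. Zg16 is a lectin-like protein that binds the wall of Gram-positive bacteria and was the second most counted of the 10 genes in 7 of the 8 libraries. Its CPM was 2050.1 and 2519 in control, 4797 and 4407 in the DSS model, 3563 and 1824 with mesalazine, and 3911 and 1839 with Kuiyangling. The DSS model pair was the highest, and 1 library of each treated group lay below both controls. Tff3 is a trefoil peptide of the mucus that takes part in epithelial repair. It stood at 372 and 521 CPM in control, 1209 and 1059.9 in the DSS model, 1237 and 716 with mesalazine and 1180.0 and 548 with Kuiyangling. All 6 DSS-exposed libraries were above both controls, by a narrow margin in Kuiyangling replicate 2. Retnlb encodes a secreted resistin-like protein of goblet cells with activity against bacteria. It had 246 and 453 CPM in control, 1027 and 946 in the DSS model, 1406 and 298 with mesalazine, and 412 and 314 with Kuiyangling. The DSS model and mesalazine replicate 1 were high, and the other 3 treated libraries lay within the range of the controls.

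Between DSS model and control, none of the 3 small products passed the test. The log2 change was 1.50 for Retnlb (SE 0.60, 2.83-fold, adjusted p = 0.296, edgeR). Tff3 was higher by 1.34 (SE 0.43, 2.54-fold, adjusted p = 0.219, edgeR) and Zg16 by 1.01 (SE 0.46, 2.01-fold, adjusted p = 0.338, edgeR), each in 2 of 2 animals. The 3 genes are short, at 458 bases for Tff3, 682 for Zg16 and 696 for Retnlb in the authors' annotation, against 13914 for Muc2 and 7930 for Fcgbp. With offsets for gene length the differences came to 0.80 for Retnlb, 0.48 for Tff3 and 0.31 for Zg16. DESeq2 called Tff3 (adjusted p = 0.0377), and edgeR without the filter on low counts did so too (adjusted p = 0.0494).

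The genes of the secretory machinery in the endoplasmic reticulum differed among themselves. Agr2 is a disulfide isomerase needed for mucin folding. Its CPM was 1102 and 639.9 in control, 1867 and 1108 in the DSS model, 2033 and 768 with mesalazine, and 951 and 1142 with Kuiyangling. The DSS model pair lay above the controls, but its lower library exceeded the higher control by only a few CPM, and the log2 change was 0.77 (SE 0.49, adjusted p = 0.446, edgeR). Creb3l1 encodes a membrane-bound transcription factor that supports secretory capacity. It was at 148 and 174 CPM in control, 196 and 82.0 in the DSS model, 95.7 and 74.1 with mesalazine, and 73.5 and 108 with Kuiyangling. The DSS model libraries lay on either side of the controls, whereas all 4 treated libraries were below both controls.

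Ern2, the form of the unfolded protein response sensor IRE1 that mucin-secreting epithelium expresses, had the smallest p of the 10 genes between DSS model and control. It stood at 77.6 and 76.6 CPM in the controls. The DSS model libraries held 37.4 and 20.5 CPM, the mesalazine libraries 23.4 and 32.5 CPM, and the Kuiyangling libraries 27.1 and 41.8 CPM. Every DSS-exposed library lay well below both controls, and the 3 DSS-exposed groups overlapped each other. These values rest on 1566 and 1242 counts in the controls and 309 to 806 counts in the DSS-exposed libraries. The DSS model group averaged 29.0 ± 12.0 CPM (SD, n = 2) against 77.1 ± 0.71 in control. Its log2 change was -1.41 (SE 0.35, 95% interval -2.20 to -0.63) with an adjusted p of 0.141 by edgeR, which does not pass the threshold. DESeq2 called it (adjusted p = 0.0142), as did edgeR without the filter on low counts (adjusted p = 0.0180). At 3054 bases Ern2 is of middle length, and the offsets for gene length moved its change only to -1.43. Its widely expressed relative Ern1, which encodes the general form of the sensor, had 51.7 and 60.9 CPM in control, 31.8 and 18.5 in the DSS model, 14.3 and 30.1 with mesalazine and 24.1 and 32.6 with Kuiyangling. Ern1 was not called between DSS model and control (log2 change -1.16, SE 0.39, adjusted p = 0.241, edgeR).

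The lineage transcription factors had estimates close to 0 between DSS model and control. Spdef drives goblet cell maturation and stood at 79.3 and 74.0 CPM in control, 95.5 and 86.1 in the DSS model, 145 and 59.0 with mesalazine, and 79.8 and 74.9 with Kuiyangling. Apart from the mesalazine pair, which held both the highest and the lowest value, the libraries lay within a narrow band. Its log2 change between DSS model and control was 0.24 (SE 0.37, 95% interval -0.59 to 1.08), and -0.08 when scaled to the pan-epithelial genes. Atoh1 commits progenitors to the secretory lineage and had 77.4 and 63.5 CPM in control, 83.4 and 40.1 in the DSS model, 47.8 and 40.0 with mesalazine, and 55.6 and 45.3 with Kuiyangling. Its 2 DSS model libraries lay on either side of the controls (log2 change -0.19, SE 0.35, adjusted p = 0.797, edgeR), and all 4 treated libraries were below both controls.

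Per unit of gene length the order of the genes was different. FPKM, the fragments of a gene relative to its length and to the library total as deposited by the authors, put Zg16 first in all 8 libraries, with a median of 4041 and a range of 2792 to 6605. Tff3 followed with a median of 1937 FPKM and Agr2 with 1527, then Retnlb with 627 and Muc2 with 533. Fcgbp stood at 191 FPKM, Creb3l1 at 43.5, Atoh1 at 24.9, Spdef at 24.0 and Ern2 at 11.3. Among all genes of the table Zg16 ranked 5, Tff3 ranked 17 and Agr2 ranked 23 by median FPKM. Several neighbours in this order changed places between libraries. Muc2 ranked 3 and 4 of the 10 in the controls, at 1045 and 798 FPKM, and 5 in every DSS-exposed library, at 296 to 652 FPKM. Across libraries the ranges of neighbours overlapped except between Zg16 and Tff3 and between Fcgbp and Creb3l1, where the lower gene stayed below the lowest value of the higher one. Ern2 ranked 9 in both controls, above Spdef at 28.7 against 26.1 and 25.3 against 21.7 FPKM, and was last in all 6 DSS-exposed libraries.

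Taking DSS model against control as a whole, which asks what DSS did without a drug, 5 of the 10 genes had estimates above 0 and 5 below. None of the 10 was called at an adjusted p under 0.05 by edgeR, where 0.247% of all tested genes were called. At an unadjusted p under 0.05 there were 3 of the 10, Tff3, Retnlb and Ern2, against 14.8% of all tested genes. DESeq2 called 2 of them, Tff3 and Ern2, among 463 genes. In 7 of the 10 the DSS model and control libraries were fully apart, against 53.4% of all tested genes: 5 higher (27.1% of all genes) and 2 lower (26.3%), so with 2 animals per group this count is of the order of the background. The median log2 change was 0.03 over the 10 genes and -0.04 over all genes. Scaled to the pan-epithelial genes, which themselves had a higher median here, the median over all genes moved to -0.35 and that of the 10 genes to -0.32.

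**Figure D2:**
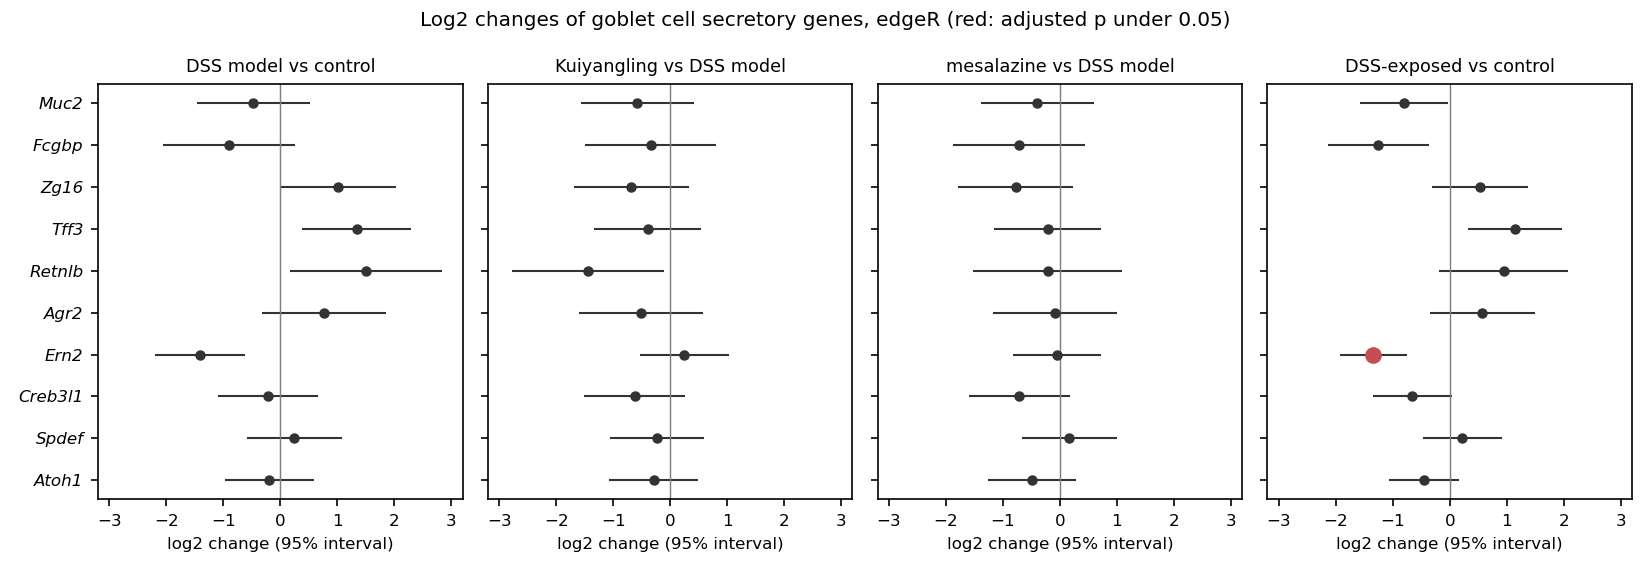
Log2 change of each gene in 4 comparisons (points, edgeR estimates; bars, 95% intervals; red, adjusted p under 0.05), with a line at 0. Only Ern2 in the comparison of all DSS-exposed mice with control is red, at -1.35; the intervals of most other genes reach across 0.

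Because the separation of Ern2 and Tff3 ran across all 3 DSS-drinking groups, the mean of these groups was also set against control in the same fit. This comparison was added after the values had been seen. Ern2 was the only one of the 10 genes called, against 2.19% of all tested genes, of which 1.35% were lower. At an unadjusted p under 0.05 there were 4 of the 10 (Ern2, Fcgbp, Tff3 and Muc2) against 20.6%. Its log2 change was -1.35 (SE 0.26, 2.54-fold lower, adjusted p = 0.0355, edgeR), and it was lower in 6 of 6 DSS-exposed animals. The call was lost when counts were scaled to the pan-epithelial genes (adjusted p = 0.0720) and with limma on FPKM (adjusted p = 0.0776). It was also lost without control replicate 1 (adjusted p = 0.0829), control replicate 2 (0.300), DSS model replicate 2 (0.0783) or Kuiyangling replicate 1 (0.0782), while the estimate stayed between -1.51 and -1.22 over all libraries left out in turn. The other estimates were 1.14 for Tff3 (adjusted p = 0.141), -1.25 for Fcgbp (0.133) and -0.80 for Muc2 (0.231), and these did not pass edgeR's test. The Fcgbp estimate was -0.063 without control replicate 2 and -1.91 without control replicate 1, where edgeR called it (adjusted p = 0.0187). DESeq2, which called more genes in all than edgeR here, called Tff3 (0.0169) and Fcgbp (0.0232) besides Ern2. For Tff3, Muc2 and Ern2 the libraries of exposed mice and controls did not overlap, against 25.5% of all tested genes: 1 higher (14.3% of all genes) and 2 lower (11.3%). With offsets for gene length Ern2 kept its call (-1.36, adjusted p = 0.0384), whereas Tff3 came to 0.27, Muc2 to -0.41, and Zg16 and Agr2 turned from 0.53 and 0.57 to -0.19 and -0.08.

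**Figure D3:**
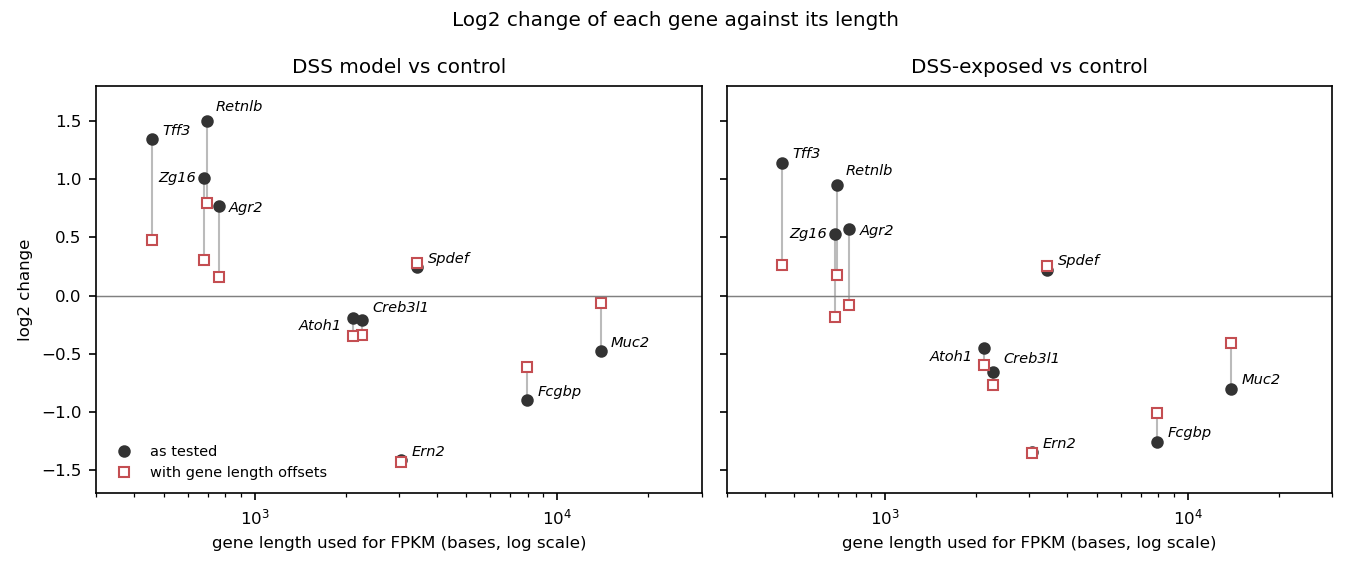
Log2 change of each gene (vertical axis) against the gene length used for FPKM (horizontal axis, log scale), as tested (filled circles) and with gene length offsets (open squares), for DSS model and for all DSS-exposed mice against control. The 4 shortest genes lie highest as tested and move towards 0 with the offsets; Ern2 and Spdef, of 3054 and 3441 bases, move by less than 0.1.

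The shortest and the longest of these genes differed in the direction of their estimates. The 4 genes under 1000 bases (Tff3, Zg16, Retnlb and Agr2) all had positive estimates against control, and the 2 longest, Muc2 and Fcgbp, had negative ones. The 4 genes between 2121 and 3441 bases did not follow length: Spdef, the longest of them, had a positive estimate and Atoh1, Creb3l1 and Ern2 negative ones. The offsets, taken from the smooth trend of deviation with length over all tested genes in each library, shrank the estimates of the 4 shortest and 2 longest genes in the DSS model comparison. For example, 1.23 log2 units of the Tff3 value in mesalazine replicate 1 and -0.61 in control replicate 1 lay on that trend, against 0.02 and -0.01 for Ern2. Whether the length trend arose in the tissue or in library preparation was not tested.

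Ratios within a library show the same contrast without scaling between libraries. Per 100 counts of Muc2, Tff3 had 2.89 and 4.74 counts in control, 12.5 and 14.1 in the DSS model, 13.6 and 18.1 with mesalazine, and 18.3 and 10.8 with Kuiyangling. The lowest DSS-exposed library was thus more than 2-fold above the higher control. For Zg16 the ratio was 15.9 and 22.9 in control and 36.4 to 60.5 in the DSS-exposed libraries, for Agr2 8.58 and 5.82 against 14.7 to 22.6, and for Retnlb 1.91 and 4.12 against 6.22 to 15.5. None of these 4 ratios overlapped between control and DSS exposure, but each sets a short gene against a very long one. After the length trend was taken out, the ratio of Tff3 was 5.47 and 8.62 in control and 4.15 to 22.1 in the DSS-exposed libraries, and the groups overlapped. That of Zg16 was then 27.6 and 38.0 in control against 14.2 to 58.8, and that of Agr2 14.5 and 9.41 against 8.49 to 30.1. For Retnlb it was 3.29 and 6.80 against 5.65 to 9.88, so these groups overlapped too. Per 100 counts of Muc2, Ern2 had 0.604 and 0.696 counts in control and 0.258 to 0.829 in the DSS-exposed libraries, so the groups overlapped. Mesalazine replicate 2, at 0.823, and Kuiyangling replicate 2, at 0.829, lay above both controls, also after the length trend was taken out. Ern2 and Spdef are of like length, 3054 and 3441 bases, and their ratio leaves length nearly out. Per 100 Spdef counts Ern2 had 97.8 and 103.5 counts in control, 39.2 and 23.8 in the DSS model, 16.1 and 55.1 with mesalazine, and 34.0 and 55.9 with Kuiyangling. No DSS-exposed library exceeded 55.9, and the lower control stood at 97.8. Unlike Creb3l1 and Atoh1, Spdef had a positive estimate between DSS model and control, which widens this gap. Ratios of Ern2 to Creb3l1 and Atoh1 were not computed. Retnlb per 100 Zg16 counts was 12.0 and 18.0 in control and 10.5 to 39.5 in the DSS-exposed libraries. Muc2 per 100 Fcgbp counts was 942 and 226 in control and 405 to 832 in the DSS-exposed libraries, so both of these ratios overlapped. Tff3 per 100 Zg16, of 458 and 682 bases, was 18.2 and 20.7 in control, 25.2 and 24.1 in the DSS model, 34.7 and 39.2 with mesalazine and 30.2 and 29.8 with Kuiyangling. This ratio was chosen after its values were seen and was not tested. With the length trend taken out it was 19.8 and 22.7 in control, 25.2 and 22.8 in the DSS model, 29.2 and 39.0 with mesalazine and 30.0 and 31.0 with Kuiyangling, so the treated pairs overlapped and the lower DSS model library lay beside the higher control.

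**Figure D4:**
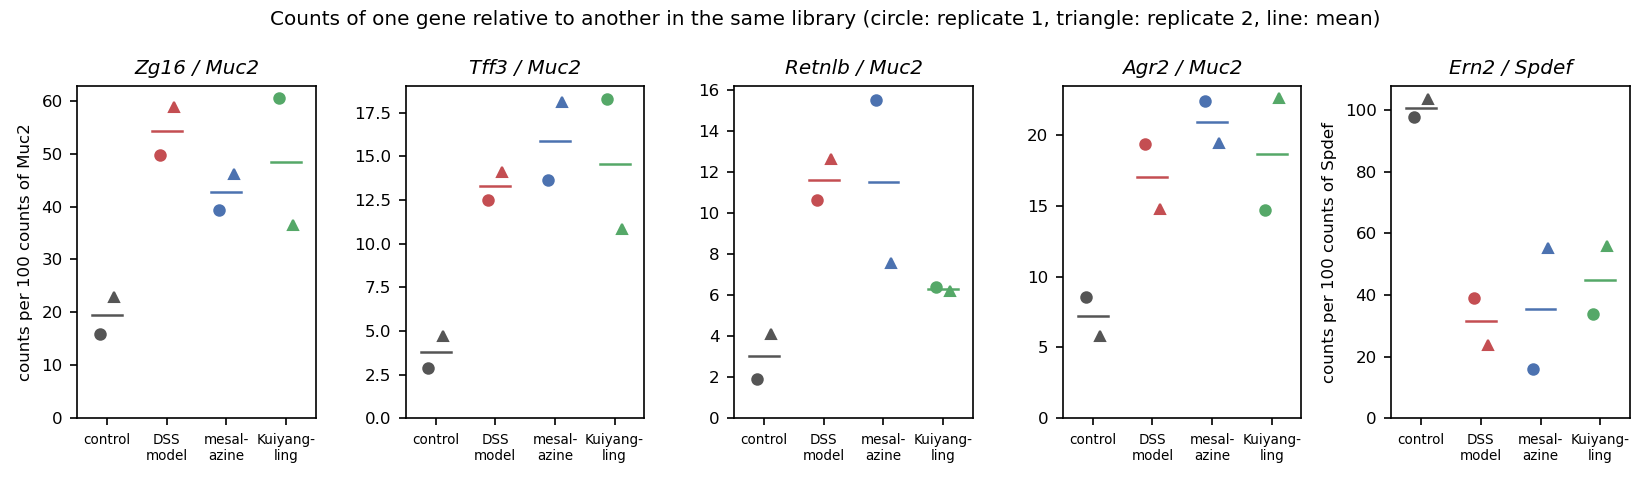
Counts of Zg16, Tff3, Retnlb and Agr2 per 100 counts of Muc2, and of Ern2 per 100 counts of Spdef, in each library (circle, replicate 1; triangle, replicate 2; line, group mean). The controls are lowest in the first 4 panels, which compare genes of very different length, and highest in the last, at 97.8 and 103.5. In the first 4 the groups overlap once the length trend is taken out, which is not drawn here.

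Kuiyangling against DSS model asks whether the preparation changed the inflamed mucosa. Of the 10 genes, 9 had estimates below 0, with a median of -0.45 against 0.00 over all tested genes. The median was -0.19 without DSS model replicate 1, -0.73 without DSS model replicate 2 and -0.21 without Kuiyangling replicate 2, and -0.33 with offsets for gene length. None of the 10 was called by edgeR, where 0% of all genes were called, and Retnlb alone of the 10 had an unadjusted p under 0.05, against 3.56% of all tested genes. DESeq2 called 13 genes and none of the 10. Retnlb averaged 363 CPM with Kuiyangling, with 412 and 314 in its libraries, against 1027 and 946 in the DSS model, a log2 change of -1.44 (SE 0.60, 95% interval -2.78 to -0.11, adjusted p = 0.996, edgeR), lower in 2 of 2 animals. Zg16 was lower by 0.68 in the estimate (95% interval -1.69 to 0.33) and Muc2 by 0.58 (95% interval -1.57 to 0.42). Ern2 alone had a positive estimate, 0.25 (95% interval -0.52 to 1.03). The libraries did not overlap for Muc2, Zg16, Retnlb and Spdef, all lower with Kuiyangling, against 43% of all tested genes in either direction and 21.1% lower. The pan-epithelial genes moved the same way, with 14 of 15 estimates below 0 and a median of -0.34. Scaling to them moved the median of all genes to 0.39 and that of the 10 genes to -0.06, and Fcgbp, Spdef and Atoh1 then had positive estimates.

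Mesalazine against DSS model, the comparison with an established drug, gave 9 of 10 estimates below 0 with a median of -0.31, against 0.04 over all tested genes. This median rested on single libraries: it was -0.88 without mesalazine replicate 1, -0.12 without mesalazine replicate 2, -0.034 without DSS model replicate 1 and -0.50 without DSS model replicate 2. With offsets for gene length it was -0.55. edgeR called none of the 10 and 0% of all genes, with none of the 10 and 5.49% of all tested genes at an unadjusted p under 0.05. DESeq2 called 84 genes, none of them among the 10. The largest estimates were -0.77 for Zg16 (95% interval -1.78 to 0.24), -0.72 for Fcgbp (-1.88 to 0.43) and -0.71 for Creb3l1 (-1.60 to 0.18). Only for Zg16 and Fcgbp did the libraries not overlap, both lower, against 27.7% of all tested genes in either direction and 13.8% lower. The mesalazine animals differed widely from each other: Retnlb spanned 298 to 1406 CPM, Agr2 768 to 2033 CPM and Muc2 3950.3 to 9067 CPM. Replicate 1, which held the higher value of each, is also the library with the strongest length trend and stood apart from the others. Without it the Retnlb estimate was -1.74 and without replicate 2 it was 0.51, so the direction for Retnlb rests on which animal is used. The estimates of Muc2, Tff3, Agr2 and Spdef also changed sign between these settings. The pan-epithelial genes had 14 of 15 estimates below 0 with a median of -0.32. Scaling to them moved the median of all genes to 0.25 and that of the 10 genes to -0.21.

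Kuiyangling and mesalazine did not separate on these genes. For all 10 the libraries of the treated groups overlapped, against 22.1% of all tested genes without overlap, and edgeR called none of the 10 and 0% of all genes, with none of the 10 and 1.90% of all genes at an unadjusted p under 0.05. DESeq2 called none of the 10 either. The median of the 10 estimates was -0.04, and it turned to 0.23 with offsets for gene length, to 0.19 when scaled to the pan-epithelial genes and to 0.36 without mesalazine replicate 1. It was -0.41 without mesalazine replicate 2 and -0.36 without Kuiyangling replicate 1. With 2 animals per group this does not show that the treatments act alike: the mesalazine pair alone spanned 4.71-fold for Retnlb.

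Set against control, both treated groups had lower Muc2 and Ern2 and higher Tff3 in every animal, as the DSS model group did. With the length trend taken out, only Ern2 of these stayed apart, at 78.4 and 76.8 CPM in control and 20.2 to 41.9 with DSS. Muc2 was then 10355 and 9580 CPM in control and 3558 to 12691 in the DSS-exposed libraries. Tff3 was 567 and 826 CPM in control and 526 to 1174 in the DSS-exposed libraries. With Kuiyangling, edgeR called none of the 10 genes, where 0.239% of all tested genes were called, and 4 of the 10 against 10.3% of all genes had an unadjusted p under 0.05. DESeq2 called none of the 10 and 362 genes. Ern2 had a log2 change of -1.16 (adjusted p = 0.242, edgeR) and Fcgbp -1.24 (adjusted p = 0.453, edgeR). The Fcgbp estimate was -0.050 without control replicate 2 and -1.90 without control replicate 1. Tff3 was higher and Muc2, Ern2, Creb3l1 and Atoh1 lower without overlap, 5 of the 10 against 49.1% of all tested genes (25.9% higher and 23.2% lower). With mesalazine, edgeR called none of the 10 against 0.673% of all tested genes, and 4 of the 10 against 20% had an unadjusted p under 0.05. Ern2 had a log2 change of -1.46 (adjusted p = 0.0902, edgeR) and Fcgbp -1.62 (adjusted p = 0.146, edgeR), both lower in 2 of 2 animals. DESeq2, which called more genes in all than edgeR here, called both (adjusted p of 0.00516 and 0.0142). Here too Fcgbp depended on the controls, at -0.43 without control replicate 2 and -2.29 without control replicate 1 (adjusted p = 0.719 and 0.0323, edgeR). In that comparison Tff3 was higher and Muc2, Fcgbp, Ern2, Creb3l1 and Atoh1 lower without overlap, 6 of the 10 against 45.7% of all tested genes (23.6% higher and 22.1% lower). The comparisons with control share the control libraries, and each treated pair enters several comparisons, so these results are not independent of each other. With offsets for gene length the medians of the 10 genes moved from -0.23 to -0.45 (Kuiyangling) and from -0.22 to -0.54 (mesalazine). One test across all 4 groups called none of the 10 by edgeR against 0.202% of all tested genes. At an unadjusted p under 0.05 it had Ern2 and Fcgbp, 2 of the 10, against 12.4%. DESeq2 called 1 of the 10, and its share over all genes is not given here.

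The other genes of the goblet cell pathway were read from 5 lists. Medians, estimates and calls for these lists are without offsets for gene length. Of 16 other goblet cell products tested, none was called between DSS model and control, with 6 estimates above and 10 below 0 and a median of -0.22. Clca1 had the smallest p, at 1719.8 and 5697 CPM in control, 850.4 and 989 in the DSS model, 452 and 427 with mesalazine and 762 and 739 with Kuiyangling. Every DSS-exposed library was below the lower control. The log2 change was -2.01 in the DSS model (SE 0.49, adjusted p = 0.135, edgeR), and in mesalazine against control it was -3.08 (adjusted p = 0.0365, edgeR). In that comparison 3 of the 16 products were called against 0.673% of all tested genes, 2 lower (Clca1 and Muc4, a membrane mucin) and 1 higher (Guca2b). Muc4 had a log2 change of -1.71 (adjusted p = 0.0430, edgeR). Guca2b, which encodes the peptide hormone uroguanylin, stood at 133 and 47.5 CPM with mesalazine against 16.3 and 18.3 in control (log2 change 2.38, adjusted p = 0.0471, edgeR). Without control replicate 2 only 1 gene in all was called in that comparison. With all DSS-exposed mice against control 4 of the 16 were called against 2.19% of all tested genes: Clca1, Muc4 and Ang4, an antimicrobial angiogenin, lower and Guca2b higher. Muc4 and Ang4 were named for these calls after their values were seen. Between the treated groups and the DSS model none of the 16 was called. There 13 of 16 estimates were below 0 with Kuiyangling (median -0.36) and 8 of 16 with mesalazine (median 0.06).

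Of 25 genes of mucin O-glycosylation, the attachment and extension of the sugar chains on Muc2, none was called in any of the 6 comparisons between groups, with a median of -0.26 between DSS model and control. Fut2, a fucosyltransferase of the epithelial surface, had the smallest p there, at 263 and 227 CPM in control and 828 and 403 in the DSS model (log2 change 1.33, adjusted p = 0.170, edgeR), and stood at 229 to 328 CPM in the treated libraries. It was the highest in the DSS model pair and within 1.5-fold of the controls in all 4 treated animals. The estimate was -1.04 for Kuiyangling and -1.14 for mesalazine against the DSS model, neither called (adjusted p = 0.996 and 0.642, edgeR).

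Of 32 genes of folding and stress in the endoplasmic reticulum, 22 had estimates above 0 between DSS model and control (median 0.41, against -0.04 over all tested genes) and none was called. In that list 25 estimates lay below 0 for Kuiyangling against DSS model (median -0.42) and 28 for mesalazine against DSS model (median -0.29), again with none called. Both of these comparisons share the DSS model libraries with the first, so a high value there enters all 3. Manf, a secreted protein induced by stress in the endoplasmic reticulum, stood at 93.4 and 83.5 CPM in control, 204 and 225 in the DSS model, 224 and 84.6 with mesalazine, and 104 and 118 with Kuiyangling. Its log2 change was 1.28 in the DSS model against control (SE 0.40, adjusted p = 0.214, edgeR). P4hb, the disulfide isomerase with the highest level in the list, was at 751 and 526 CPM in control, 1139 and 875 in the DSS model and 776 to 1002 in the treated libraries. The sensors Ern1 and Ern2 thus had estimates opposite in sign to the median of this list in the DSS model, though no member of the list was called.

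The 24 genes of granule and mucus release and the 25 genes of secretory lineage control had medians of -0.28 and -0.22 between DSS model and control, with none called. Tgm3, a transglutaminase that cross-links Muc2 in the gel, ranged most widely, at 116 and 1479 CPM in control and 13.1 and 4.18 in the DSS model. It held 0.849 and 1.63 CPM with mesalazine and 12.3 and 69.2 CPM with Kuiyangling. All DSS-exposed libraries lay below the lower control, and the controls themselves differed more than 10-fold, with the higher value in control replicate 2. Tgm3 was called lower with mesalazine against control (adjusted p = 0.0312, edgeR) but not in the DSS model (adjusted p = 0.0910, edgeR). Among the lineage genes the smallest p belonged to Notch1, the receptor whose signal opposes secretory fate, at 21.0 and 22.1 CPM in control, 15.9 and 10.9 in the DSS model and 14.7 to 17.5 in the treated libraries (log2 change -0.69, adjusted p = 0.302, edgeR).

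**Figure D5:**
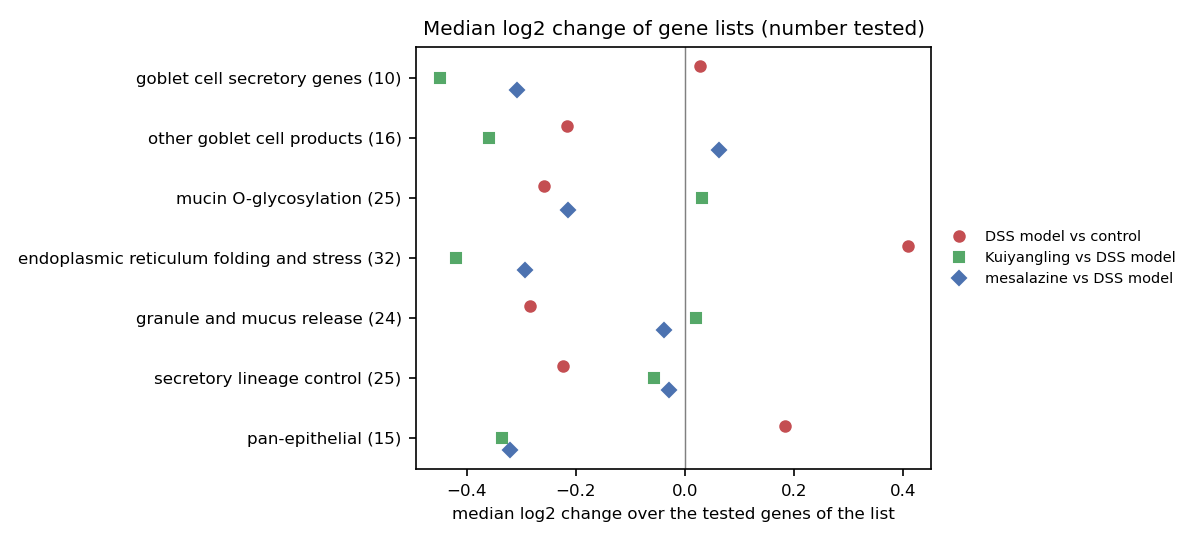
Median log2 change over the tested genes of 7 lists (number tested in brackets) for 3 comparisons that share the DSS model libraries. The endoplasmic reticulum list has the highest median between DSS model and control, 0.41, and the 10 goblet cell secretory genes the lowest between Kuiyangling and DSS model, -0.45, close to -0.42 for the endoplasmic reticulum list, -0.36 for other goblet cell products and -0.34 for the pan-epithelial genes.

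Likeness of profile was measured as the root mean square difference of log2 CPM, centred per gene over the 8 libraries. The length trend was left in these values. The nearest genes to Ern2 were Arhgap33 at 0.11, Boc at 0.17 and Nav2 at 0.18, and its nearest relative among the 10 was Creb3l1 at 0.48. Muc2 was nearest to Ephx4 at 0.17, Chrm1 at 0.19 and Atp2c2 at 0.20. Within the 10 genes Muc2 was nearest to Atoh1 at 0.36 and Creb3l1 at 0.40, and lay far from Tff3 and Retnlb, both at 0.90. The nearest genes to Tff3 were Prdx5 at 0.17, Pglyrp1 at 0.18 and Cyba at 0.19, and its nearest member was Zg16 at 0.35. The nearest genes to Retnlb lay farther off, Cebpd at 0.32, Sh3bgrl3 at 0.33 and Gstp3 at 0.37. With the length trend left in, the 10 genes thus did not share 1 profile. Ern2 and Retnlb were 1.40 apart, the distance ranking 12865 among the 13381 tested genes seen from Ern2. Several of these distances set short genes against long ones, and the part of the length trend in them was not tested.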

How the data were processed

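The authors deposited raw counts per gene and FPKM per gene for 8 stranded poly(A) libraries. The submitters' processing notes name Trimmomatic and HISAT2 but no version of either. Genome build, annotation, read counter, strand setting and the treatment of reads with several matches are not given in the sources used here. The deposited FPKM equalled counts divided by length and library total within 0.1% for all 17353 genes, and lengths were taken from this relation. RNA had an integrity number of at least 7, per the labels' protocols.

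Counts were tested with edgeR 4.0.16 (R 4.3.3): filterByExpr by group, TMM scaling, 1 quasi-likelihood fit over all 8 libraries with a mean per group, Benjamini-Hochberg adjustment over 13381 genes, called at an adjusted p under 0.05. There were 4 residual degrees of freedom and a common biological coefficient of variation of 0.287. The script was tested on simulated counts. Alternatives were DESeq2 1.42.0, limma 3.58.1 on log2(FPKM + 1), other scalings, no filter, only the groups compared, replicate blocks, gene length offsets (a lowess trend per library) and each library left out. CPM are TMM-scaled. Intervals cover 95%.

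The 10 genes and the pathway lists were chosen with earlier results of these data known. Named genes are the 10, of each list the tested gene with the smallest p in each of 6 comparisons and the most abundant one, and the 3 nearest profiles for at most 4 of the 10. Genes without an established symbol were skipped. Hoxb13, Car1 and Lyz1 were named from the marker lists to check tissue and library. Cd74 and S100a9 were named from the immune list after their values were seen.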

Additional observations from a re-analysis of the deposited data

How the results depend on the processing

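Over the log2 changes of the 10 genes, 361 of 386 values under other settings kept direction and side of the threshold, as did 324 of 352 with 1 library left out; causes were not tested. Genes called moved from 33 (DSS model vs control) to 487 without the filter, 463 by DESeq2 and 19 by limma on FPKM. From 0 they moved to 11, 13 by DESeq2 and 21 with only 2 groups fitted (Kuiyangling vs model), to 104 and 84 (mesalazine vs model), and to 3 without the filter (Kuiyangling vs mesalazine). Against control, Kuiyangling moved from 32 to 451, 362 and 7, and to 19 with 2 groups. Mesalazine moved from 90 to 1090, 1008 and 11, to 293 with 2 groups and 37 with length offsets. All DSS-exposed mice moved from 293 to 1169, 991 and 117.

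Of the 10 genes, no filter and DESeq2 each called 2 (DSS model vs control), 2 (mesalazine vs control) and 3 (DSS-exposed vs control). These settings also called more genes in all, as given above, so these counts are to be read against those totals. Across 4 groups they called 2 and 1 of the 10, where the totals over all genes are not given here. Pan-epithelial scaling and limma each called 0 in the DSS-exposed comparison. Signs turned under pan-epithelial scaling for Spdef (DSS model vs control, -0.080), Fcgbp, Spdef and Atoh1 (Kuiyangling vs model, 0.033, 0.16 and 0.13) and Agr2 and Ern2 (mesalazine vs model, 0.044 and 0.23), and by limma for Spdef (mesalazine vs model, -0.0016). In the DSS-exposed comparison length offsets turned Zg16 and Agr2 to -0.19 and -0.078.

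With a replicate block, genes called were 50 (DSS model vs control) and 65 (Kuiyangling vs control), 54 with length offsets added, where Zg16 and Agr2 were -0.21 and -0.048 in the DSS-exposed comparison. Deviations of same-numbered libraries were not clearly correlated (r from -0.31 to 0.16). These r values had no reference range, so they cannot decide whether the numbers mark pairs or a shared batch, which was not tested further.

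Leaving out 1 library gave 1 to 195 genes (DSS model vs control), 1 to 148 (Kuiyangling vs control), 1 to 2795 (mesalazine vs control) and 3 to 2300 (DSS-exposed), each lowest without control replicate 2. In the last 2 the calls among the 10 genes were most numerous without mesalazine replicate 2, where these totals were also highest. They are therefore not read as a result about the 10. A lone remaining sample is assumed to vary like the other groups. In DSS model vs control Fcgbp spanned -1.55 to 0.29, Creb3l1 -0.97 to 0.28 and Atoh1 -0.81 to 0.24. In Kuiyangling vs model Tff3 spanned -1.08 to 0.057, Ern2 -0.12 to 0.75, Creb3l1 -1.11 to 0.14 and Atoh1 -0.72 to 0.33. In mesalazine vs model Muc2 spanned -1.13 to 0.080, Tff3 -0.68 to 0.13, Retnlb -1.74 to 0.51, Agr2 -0.96 to 0.45, Ern2 -0.42 to 0.45, Creb3l1 -1.21 to 0.050, Spdef -0.63 to 0.68 and Atoh1 -0.93 to 0.13. Spdef spanned -0.044 to 0.39 in the DSS-exposed comparison. With 2 animals per group, an estimate whose 95% interval includes 0 could not be told from no difference.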
